A study of Mus musculus with 8 samples.

Results

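Slits, netrins and their Robo, UNC5 and Dcc receptors were followed in mouse colon fibroblasts sorted without or with CD90 on the surface. The set holds 10 genes, listed by name with no threshold on their values: the ligand genes Slit1, Slit2, Slit3, Ntn1 and Ntn4, and the receptor genes Robo1, Robo2, Unc5b, Unc5c and Dcc. They were chosen with earlier results of these data known. Each was taken from the rows of the array whose annotation names a single gene, and each of the 10 had exactly 1 such row, out of 30783 genes named this way. The cells came from the colon of wild-type C57BL/6J mice and had been gated as lacking Epcam, CD45 and CD31 and as carrying gp38 (podoplanin). CD90, the product of Thy1, then split them into a CD90- and a CD90+ population. Each population had 4 samples on 1 array each, numbered 13, 15, 17 and 19 (CD90-) and 14, 16, 18 and 20 (CD90+) in their titles. The series' design text gives 4 mice as the source, but no label ties a sample to its mouse. All p-values here therefore rest on the spread among arrays, whose samples may not be independent animals.

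Slits are large secreted proteins with leucine-rich repeats, first known for repelling axons through Robo receptors on the growth cone. Netrins are laminin-related secreted proteins that attract through DCC and neogenin and repel through UNC5 receptors. Outside the nervous system the same ligands and receptors act in vessel growth, cell migration, adhesion and survival, and UNC5 receptors and DCC are known as dependence receptors, which can signal cell death when their ligand is missing. In the gut they are known from the patterning of enteric nerves and from the epithelium.

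Levels are the deposited log2 values, with means ± SD over n = 4 samples, and every difference is CD90+ minus CD90-. Because the values reach 19.9, past the log2 limit of 16 of a 16-bit scan, folds hold for the deposited scale alone, and rows of different genes cannot be ranked by level. Thy1 followed the labels, at 7.03 to 8.11 in CD90+ and 5.46 to 5.57 in CD90- samples (exact permutation test, two-sided, p = 0.0286, the smallest p that this kind of test can give for 4 against 4 samples). The 5222 rows of negative controls had a median of 6.81 ± 0.020 in CD90- and 6.64 ± 0.045 in CD90+ samples, and a mean below it is a caution about the size of a difference. Samples 13 and 14, 1 of each population, stood apart from the other 6: the X inactivation RNA Xist was at 16.16 and 16.27 there and at most 9.32 elsewhere, and the Y-linked gene Uty at 5.49 and 5.56 against at least 9.65. Results that rest on these samples are given with and without them. Of the fibroblast markers, 6 of 7 were measured and all 6 were bright in every sample (Dcn, which codes for the matrix proteoglycan decorin, at 17.59 or more), while Pdgfra had no row naming it alone. In a bulk sample, fewer cells of a type and less RNA per cell cannot be told apart.

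The CD90+ fibroblasts had more RNA of Slit3, Ntn4 and Ntn1 and less of Unc5b and Unc5c, while the Robo receptor genes differed little. Of the 10 genes, 8 reached the filter on dim rows (5.36, the median of all transcript clusters, in at least 4 of the 8 samples) and Slit1 and Dcc did not. Of the 8 tested, 3 were higher and 2 lower in CD90+ at a limma adjusted p under 0.05. Among all 17250 genes tested 14.0% were higher and 15.7% lower, together 29.7%. The populations did not overlap in 4 of the 8 (Slit3, Ntn1, Ntn4 and Unc5b), against 32.3% of all genes tested. The median difference of the 8 was 0.13 and the median size of the difference 0.77, beside -0.014 and 0.18 over all genes tested. Since the genes were chosen with earlier results of these data known, these values do not test an excess over all genes.

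**Figure D1:**
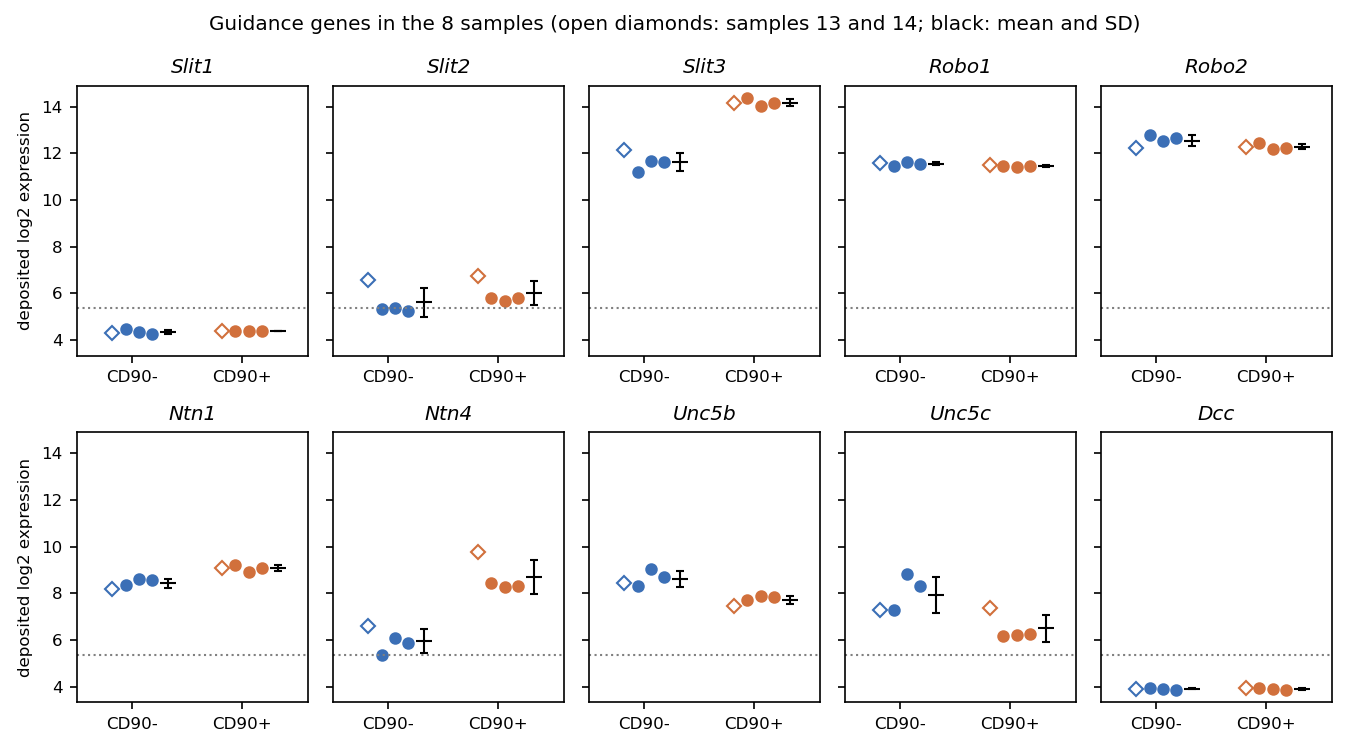
Deposited log2 expression (y axis, shared by all panels) of the 10 guidance genes in CD90- (blue) and CD90+ (orange) samples. Points are samples, open diamonds samples 13 and 14, black marks the mean with SD (n = 4), and the dotted line the filter at 5.36. Slit3, Ntn1, Ntn4 and Unc5b separate the populations, and Slit1 and Dcc lie under the line in all 8 samples.

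Slit3, a secreted Robo ligand, was bright in both populations and had the smallest p of the 8. Its values were 12.13, 11.19, 11.67 and 11.61 in CD90- samples 13, 15, 17 and 19. In CD90+ samples 14, 16, 18 and 20 they were 14.18, 14.36, 14.02 and 14.15. The populations were far apart, and the CD90+ samples lay closer together than the CD90- samples. The mean rose from 11.65 ± 0.39 to 14.18 ± 0.14, a difference of 2.53 (standard error 0.18, 95% interval 2.12 to 2.94, limma adjusted p = 1.53e-05), 5.77-fold on this scale. Only 1.32% of the genes tested differed by more. The difference was 2.05 between samples 14 and 13 and 2.69 in the other 6 samples.

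Slit2, a close relative that binds the same receptors, was dim. Its CD90- values were 6.56, 5.34, 5.39 and 5.24 and its CD90+ values 6.76, 5.80, 5.69 and 5.79. Samples 13 and 14 were the highest of their populations, and the populations overlapped only through sample 13. The means were 5.63 ± 0.62 and 6.01 ± 0.50, both under the median of the negative control rows, and the difference of 0.38 did not pass (95% interval -0.39 to 1.15, limma adjusted p = 0.443). Without samples 13 and 14 the populations no longer overlapped and the difference was 0.44 (limma adjusted p = 0.00356). With a term for samples 13 and 14 in the fit, an alternative chosen after seeing the data, it was 0.38 (limma adjusted p = 0.00388). The sample titles do not say what sets these samples apart. Slit1, the third Slit gene, known mainly from the nervous system, lay between 4.26 and 4.46 in CD90- and between 4.39 and 4.41 in CD90+ samples. All 8 values were under the filter, which does not show that the transcript was absent.

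Slit3 and Slit2 each hold a gene for the microRNA miR-218, which is known to be made from Slit transcripts and to target Robo1. In RefSeq's table (GRCm38.p6) Mir218-2 lies within Slit3 and Mir218-1 within Slit2, and the rows of both hairpins were looked up after the values of the Slit genes were seen. The mature sequences are shown because both loci give the same 5p strand, so that only the host and the 3p strand tell the loci apart. Each is written 5′ to 3′ as RNA, with the seed (bases 2 to 8) in capitals.
mmu-miR-218-5p (Mir218-2, chr11:35616840-35616860, + strand, and Mir218-1, chr5:48223966-48223986, + strand): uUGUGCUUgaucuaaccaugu
mmu-miR-218-2-3p (Mir218-2, chr11:35616882-35616903, + strand): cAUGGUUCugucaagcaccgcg
mmu-miR-218-1-3p (Mir218-1, chr5:48224005-48224026, + strand): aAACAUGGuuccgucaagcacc
The row of Mir218-2 was at 5.96, 5.24, 5.46 and 5.63 in the CD90- samples and at 7.92, 7.34, 8.48 and 8.31 in the CD90+ samples, with no overlap. Its mean rose from 5.58 ± 0.31 to 8.01 ± 0.50, a difference of 2.44 (95% interval 1.87 to 3.01, limma adjusted p = 0.000139), beside the 2.53 of Slit3 around it. The CD90- mean lay under the negative control rows. Within CD90+ the samples ran in reverse order in Slit3 and Mir218-2. Sample 16 was the highest in Slit3 and the lowest in Mir218-2, and sample 18 the opposite. Within CD90- sample 13 was the highest and sample 15 the lowest in both. The row of Mir218-1 stayed under the filter in all 8 samples, at 4.21 to 4.48 and 4.11 to 4.85, and was highest in samples 13 and 14, as Slit2 was. The sources used here do not say whether these rows measured hairpin, mature or host transcript RNA.

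**Figure D2:**
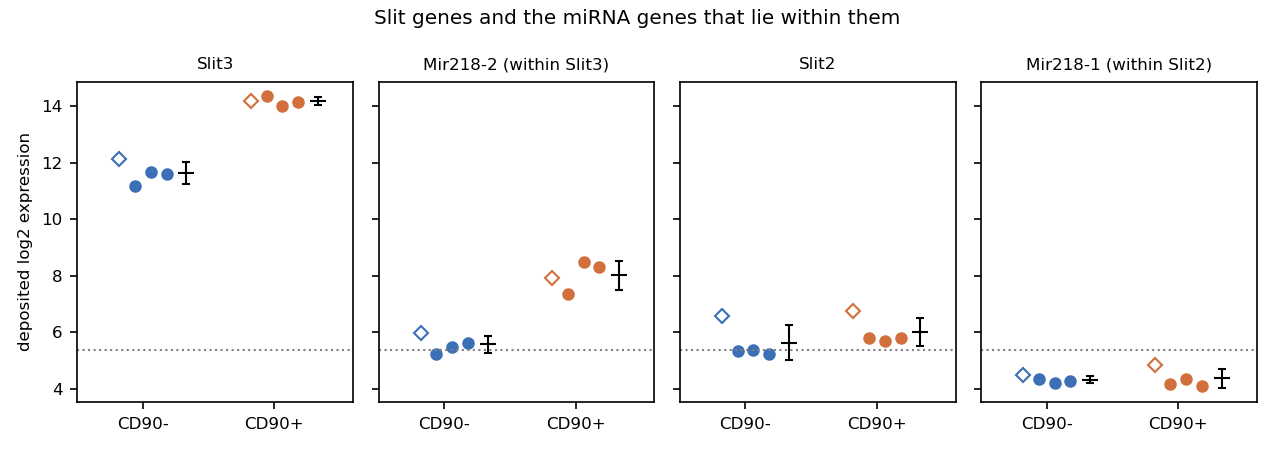
Deposited log2 expression (y axis, shared) of Slit3 and Slit2, each beside the miRNA gene that lies within it, in CD90- (blue) and CD90+ (orange) samples. Points are samples, open diamonds samples 13 and 14, black marks the mean with SD (n = 4), and the dotted line the filter at 5.36. Mir218-2 separates the populations, as Slit3 does, with means of 5.58 and 8.01, but the CD90+ samples run in reverse order in Slit3 and Mir218-2. Mir218-1 lies under the line.

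Both netrin genes that were tested, Ntn4 and Ntn1, were higher in the CD90+ population. Ntn4, a netrin of basement membranes that binds laminin, was at 6.59, 5.34, 6.08 and 5.89 in CD90- and at 9.76, 8.44, 8.25 and 8.30 in CD90+ samples. Every CD90+ sample was above every CD90- sample, and samples 13 and 14 were again the highest of their populations. The mean rose from 5.98 ± 0.51, under the negative control rows, to 8.69 ± 0.72, a difference of 2.71 (standard error 0.37, 95% interval 1.86 to 3.56, limma adjusted p = 0.000718). Only 1.12% of the genes tested differed by more. The difference was 3.18 between samples 14 and 13 and 2.56 in the other 6.

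Ntn1, the ligand of DCC, neogenin and the UNC5 receptors, rose by less. Its CD90- values were 8.20, 8.34, 8.63 and 8.56 and its CD90+ values 9.10, 9.22, 8.93 and 9.10, so the populations were close but did not overlap. The mean rose from 8.43 ± 0.20 to 9.09 ± 0.12, a difference of 0.65 (95% interval 0.41 to 0.90, limma adjusted p = 0.00211), 1.57-fold on this scale. The difference was 0.90 between samples 14 and 13 and 0.57 in the other 6.

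The Slit receptor genes Robo1 and Robo2 were bright and nearly level. Robo1 was at 11.59, 11.47, 11.64 and 11.56 in CD90- and at 11.50, 11.46, 11.41 and 11.44 in CD90+ samples. Its difference of -0.11 did not pass (limma adjusted p = 0.194), and the 95% interval, -0.25 to 0.023, holds no change in either direction as large as that of Ntn1. Robo2 was at 12.22, 12.80, 12.54 and 12.64 in CD90- and at 12.29, 12.45, 12.20 and 12.24 in CD90+ samples. Sample 13 was the lowest of the CD90- population and the only one to lie among the CD90+ values. The difference of -0.26 did not pass (95% interval -0.54 to 0.025, limma adjusted p = 0.157), but without sample 13 it was -0.37 (limma adjusted p = 0.0184) and without samples 13 and 14 it was -0.36 (limma adjusted p = 0.0309). With array weights it was -0.33 (limma adjusted p = 0.0163).

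The UNC5 receptor genes Unc5b and Unc5c were lower in CD90+ cells, while their relative Unc5a, described with the wider list, was higher. Unc5b, an UNC5 receptor known from endothelium as well, was at 8.42, 8.32, 9.06 and 8.68 in CD90- and at 7.47, 7.72, 7.87 and 7.83 in CD90+ samples. The populations did not overlap. The mean fell from 8.62 ± 0.33 to 7.72 ± 0.18, a difference of -0.89 (95% interval -1.27 to -0.52, limma adjusted p = 0.00361). The difference was -0.95 between samples 14 and 13 and -0.88 in the other 6. Of the 8 measured endothelial markers, Lyve1 (difference -1.09, limma adjusted p = 0.000285) and Prox1 (-0.49, limma adjusted p = 0.00485), both of lymphatic vessels, fell as Unc5b did. Prox1 in both populations and Lyve1 in CD90+ had means under the negative control rows. Tek, an angiopoietin receptor, rose (1.84, limma adjusted p = 0.0109), and the other 5, Pecam1 among them, were not called. Their part in the Unc5b difference was not tested.

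Unc5c, the receptor of this family known from spinal and cerebellar axons, varied more. Its CD90- values were 7.30, 7.30, 8.83 and 8.33 and its CD90+ values 7.36, 6.18, 6.20 and 6.26. Sample 14 lay just above CD90- samples 13 and 15, and the other CD90+ samples lay far below all CD90- samples. The mean fell from 7.94 ± 0.76 to 6.50 ± 0.58, the latter under the negative control rows, a difference of -1.44 (standard error 0.40, 95% interval -2.36 to -0.52, limma adjusted p = 0.0263). The difference was 0.059 between samples 14 and 13 and -1.94 in the other 6 (limma adjusted p = 0.00525 without samples 13 and 14). The call was lost without sample 17 (difference -1.14, limma adjusted p = 0.0584), 19 (-1.31, 0.0735), 16 (-1.33, 0.0678), 18 (-1.34, 0.0705) or 20 (-1.36, 0.0691). Dcc, the netrin receptor known from axons and from the colon epithelium, lay between 3.87 and 3.93 in CD90- and between 3.85 and 3.94 in CD90+ samples, under the filter in all 8.

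**Figure D3:**
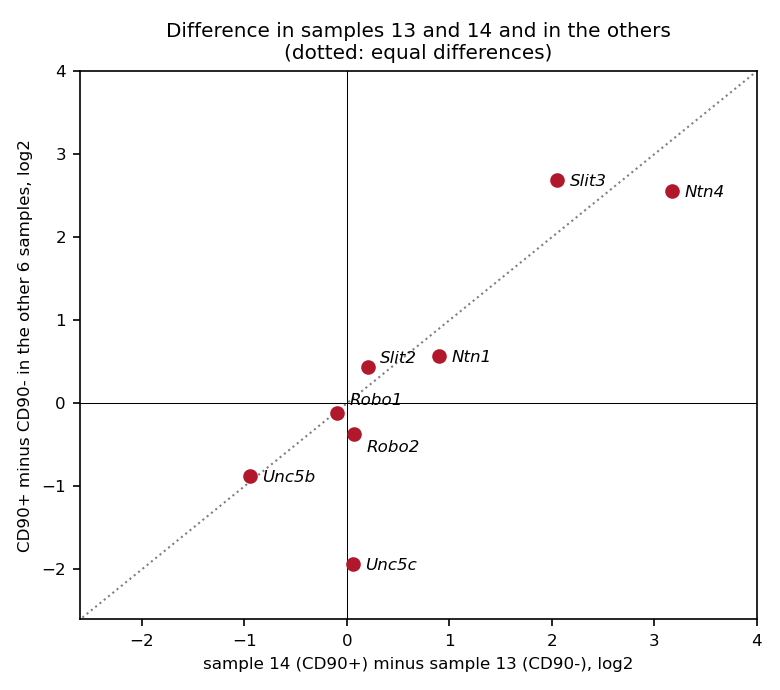
Difference of each tested guidance gene between sample 14 (CD90+) and sample 13 (CD90-) on the x axis, and between the populations in the other 6 samples on the y axis, both log2. The dotted line marks equal differences; Unc5c lies far from it, with 0.059 and -1.94, and Slit3, Ntn4, Ntn1 and Unc5b have the same sign on both axes.

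Within families, the difference between the populations was compared gene against gene. For each of 6 pairs the log2 difference of the paralogs was taken within each array, which removes the brightness of the rows, and compared between populations by a two-sided exact permutation test over 70 assignments, with Benjamini-Hochberg adjustment over the 6 pairs. Slit3 rose by 2.15 more than Slit2, and Ntn4 by 2.06 more than Ntn1 (each exact p = 0.0286, adjusted p = 0.0571). Neither passed after adjustment. Since 0.0286 is the smallest exact p this design allows, a larger difference in either pair could not have lowered its adjusted p. For Unc5c against Unc5b the difference was -0.55 (exact p = 0.229, adjusted p = 0.343) and for Robo2 against Robo1 -0.14 (exact p = 0.429, adjusted p = 0.457). Slit2 in both populations, Ntn4 in CD90- and Unc5c in CD90+ had means under the negative control rows, which limits what these pairs show. The other 2 pairs set Slit3 and Slit2 against Slit1 and are not read, since Slit1 lay under the filter in all 8 samples.

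Promoters were read for the ligand genes Slit3 and Ntn4 and the receptor genes Unc5b and Unc5c, since these had the largest differences and went in opposite directions. The sequences are RefSeq's (GRCm38.p6) from 250 bases before to 50 bases after an annotated start. Of the 10 genes, 7 matched the table. Each is given 5′ to 3′ on the gene's strand, with every GGGCGG, the core of the GC box, in capitals on either strand.
Slit3 (chr11:35121206-35121505, + strand): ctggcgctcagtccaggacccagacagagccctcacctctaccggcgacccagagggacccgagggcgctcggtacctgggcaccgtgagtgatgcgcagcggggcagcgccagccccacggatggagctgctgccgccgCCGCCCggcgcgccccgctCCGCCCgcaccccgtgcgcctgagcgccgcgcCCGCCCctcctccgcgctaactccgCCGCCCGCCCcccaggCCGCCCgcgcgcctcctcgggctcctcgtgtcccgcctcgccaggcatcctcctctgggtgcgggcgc
Ntn4 (chr10:93640799-93641098, + strand): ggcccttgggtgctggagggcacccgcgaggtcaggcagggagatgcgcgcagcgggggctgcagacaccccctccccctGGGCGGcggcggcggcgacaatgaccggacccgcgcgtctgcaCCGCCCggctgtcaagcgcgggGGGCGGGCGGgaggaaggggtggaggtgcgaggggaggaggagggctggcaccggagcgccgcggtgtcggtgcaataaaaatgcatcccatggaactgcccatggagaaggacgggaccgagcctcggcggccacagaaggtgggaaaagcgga
Unc5b (chr10:60831532-60831831, - strand): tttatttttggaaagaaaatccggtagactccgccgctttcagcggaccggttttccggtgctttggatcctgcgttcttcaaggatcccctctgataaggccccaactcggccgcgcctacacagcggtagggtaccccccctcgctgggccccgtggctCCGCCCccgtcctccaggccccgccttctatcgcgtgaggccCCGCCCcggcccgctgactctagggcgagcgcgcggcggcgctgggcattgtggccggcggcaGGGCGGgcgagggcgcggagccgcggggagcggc
Unc5c (chr3:141465314-141465613, + strand): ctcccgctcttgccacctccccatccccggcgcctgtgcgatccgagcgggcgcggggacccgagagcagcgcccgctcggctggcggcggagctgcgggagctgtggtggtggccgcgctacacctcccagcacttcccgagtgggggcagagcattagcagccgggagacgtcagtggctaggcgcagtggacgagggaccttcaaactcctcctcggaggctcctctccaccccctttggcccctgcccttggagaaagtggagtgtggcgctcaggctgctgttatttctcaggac
All 4 were rich in G and C, at 78.3% for Slit3, 72.0% for Ntn4, 69.7% for Unc5b and 68.3% for Unc5c, beside a median of 52.7% over all 32851 promoters of this length. GGGCGG occurred 6 times in Slit3, 4 times in Ntn4, 3 times in Unc5b and not in Unc5c, with neighbouring matches that share letters in both Slit3 and Ntn4, and 35.7% of all promoters hold it on either strand. None of the 4 windows held CCAAT (37.4% of all promoters), TATAAA (13.6%), CACGTG (7.15%), GGAATG (14.7%) or TGANTCA (7.81%), where N is any base and both strands were searched. A match is a description of the letters, and no match says only that the letters are not in this window.

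The wider list of netrin and Slit relatives, receptor partners and signalling proteins held 46 genes. Of these, 42 had a row of their own and 33 reached the filter, of which 11 were higher and 6 lower in CD90+ and 16 were not called, beside 29.7% of all genes tested called. The list's median difference was 0.081. Of the other netrin genes, Ntn5 and Ntng1 reached the filter in too few samples to be tested, and Ntn3 and Ntng2 had no row naming them alone. Of the other receptors 2 of 5 were tested. Neo1, which codes for neogenin, a receptor of netrins and of the RGM proteins, fell from 12.32 ± 0.11 to 10.96 ± 0.30 (difference -1.36, limma adjusted p = 0.000148). Unc5a rose from 6.14 ± 0.34 to 6.92 ± 0.29 (difference 0.78, limma adjusted p = 0.0163), opposite to Unc5b and Unc5c and from a mean under the negative control rows. Robo3, Robo4 (the Robo of endothelium) and Unc5d lay under the filter in all 8 samples.

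Of 12 extracellular partners 8 were tested, with 4 higher and 1 lower, beside 14.0% and 15.7% of all genes tested. The FLRT proteins are membrane ligands of UNC5 receptors, and all 3 of their genes rose. Flrt2 was at 6.24 to 8.07 in CD90- and at 9.19 to 9.95 in CD90+ samples (difference 2.55, limma adjusted p = 0.000781). Flrt1 rose by 0.95 (limma adjusted p = 0.000283) and Flrt3 by 1.0 (limma adjusted p = 0.00486), both from means under the negative control rows. Rgmb, a ligand of neogenin, rose from 7.07 ± 0.33 to 8.62 ± 0.28 (difference 1.55, limma adjusted p = 0.000344). Adgrl3, a latrophilin that binds FLRT proteins, fell from 10.98 ± 0.19 to 8.26 ± 0.26 (difference -2.72, limma adjusted p = 2.87e-06). The Slit-binding proteoglycan gene Gpc1 was at 9.97 ± 0.071 and 9.82 ± 0.12 and was not called (limma adjusted p = 0.186).

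Of 25 intracellular genes, 23 were tested, with 6 higher, 4 lower and 13 not called. Over all genes tested 14.0% were higher and 15.7% lower. Srgap1, a GTPase-activating protein that binds the Robo tail, rose from 6.82 ± 0.16 to 8.30 ± 0.11 (difference 1.48, limma adjusted p = 9.37e-06). Fyn, a kinase that acts downstream of DCC, rose from 9.88 ± 0.23 to 11.91 ± 0.19 (difference 2.02, limma adjusted p = 1.12e-05). Dapk1, a death-associated kinase that acts downstream of UNC5 receptors, rose from 10.36 ± 0.28 to 13.08 ± 0.27 (difference 2.72, limma adjusted p = 7.64e-06). Nck2, an adaptor between receptors and actin, fell from 8.76 ± 0.13 to 7.88 ± 0.12 (difference -0.88, limma adjusted p = 0.00014).

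**Figure D4:**
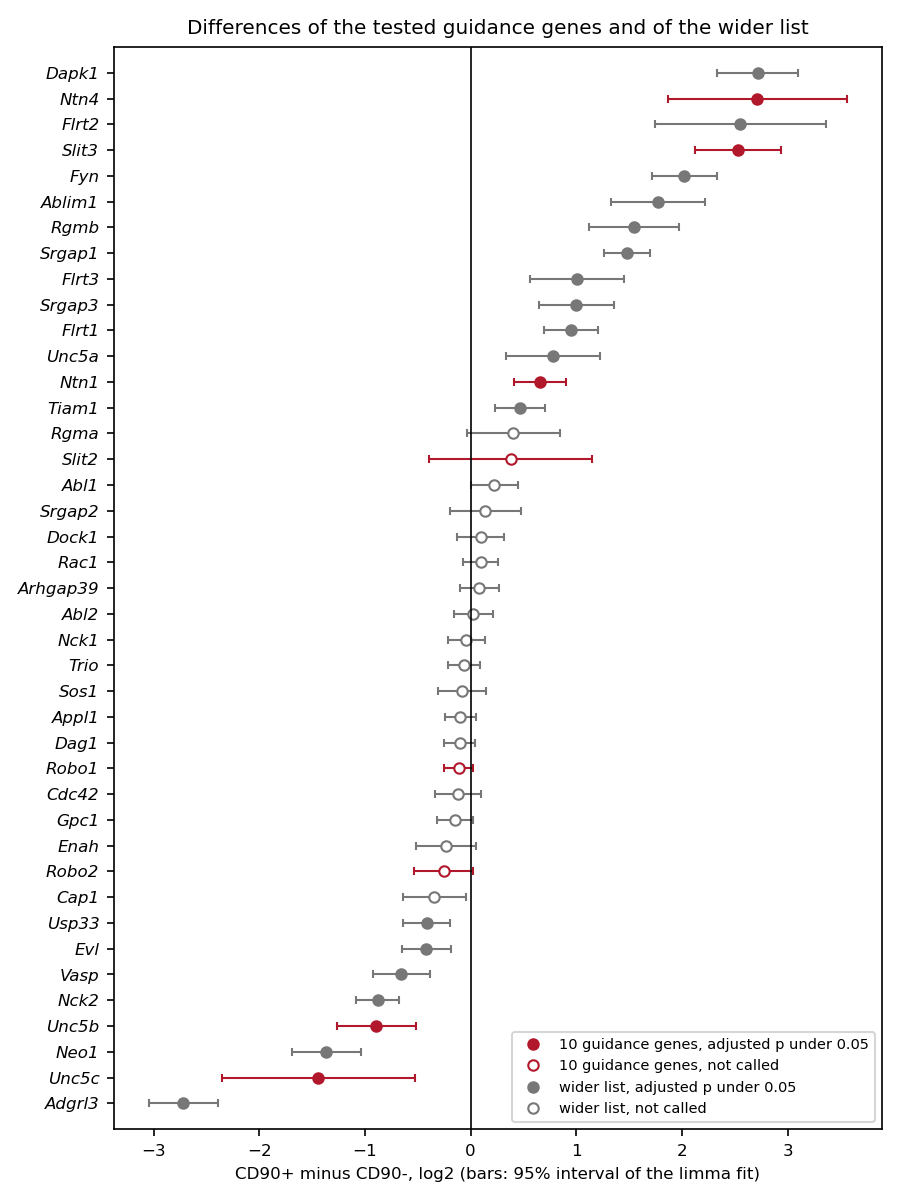
Differences between the populations, CD90+ minus CD90- in log2 (x axis), for the 8 tested guidance genes (red) and the 33 tested genes of the wider list (grey), in order of size. Bars are 95% intervals of the limma fit, filled points are genes with an adjusted p under 0.05 and open points genes not called. Ntn4 and Slit3 lie near the top, Unc5b and Unc5c near the bottom, and Robo1 and Robo2 near 0.

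The genes most like Ntn4, Slit3 and Unc5c over the 8 samples were found by the root mean square distance between profiles, each centred on its own mean (log2). For Slit3 they were Rcan1, a calcineurin regulator, at a distance of 0.13 and Pde8a, a cAMP phosphodiesterase, at 0.13, against a median of 1.31 over all genes tested. For Ntn4 they were Pgm5, a cytoskeletal relative of phosphoglucomutase, at 0.17 and Fap, the protease known as fibroblast activation protein, at 0.21 (median 1.48). For Unc5c they were Smoc1, a calcium-binding matrix protein, at 0.33 and Tpm1, a tropomyosin, at 0.36 (median 0.93). The nearest profiles lie under the median by construction. Members were taken for their large differences, and their neighbours differed alike: Rcan1 by 2.62, Pde8a by 2.32, Pgm5 by 2.62, Fap by 2.88, Smoc1 by -1.73 and Tpm1 by -1.36.

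Markers of fibroblasts and of other cell types also moved between the populations, where 14.0% of all genes tested were higher in CD90+ and 15.7% lower. Each list is given as the log2 of the summed linear level of its measured genes. The brightest row weighs most, so a higher sum need not be a shift of the whole list. In CD90+ samples the neuron sum was mostly Stmn2 (10.54 to 11.65), the glia sum mostly Cdh19 and the fibroblast sum mostly Dcn. Of the 6 measured fibroblast markers 2 were higher (Dcn and Lum) and 1 lower (Col1a2), with sums of 18.48 to 18.88 in CD90- and 19.19 to 19.34 in CD90+ samples. All 6 measured enteric glia markers of 8 listed were called higher in CD90+ samples, with sums of 8.11 to 8.54 in CD90- and 9.85 to 12.02 in CD90+. Their member Cdh19, a cadherin of glia, was at 4.93 to 5.68 and 8.97 to 11.74. Erbb3, another member, overlapped between the populations, with a difference of -0.04 between samples 14 and 13 and 1.97 in the other 6. Of 8 measured enteric neuron markers of 9 listed, 3 were higher (Stmn2, Uchl1 and Ret) and 5 lay under the filter (Elavl4, Tubb3, Snap25, Chat and Nos1), with sums of 8.04 to 8.25 and 10.78 to 11.76. Of 6 smooth muscle markers 4 were higher and 1 lower, with sums of 11.62 to 12.51 and 11.96 to 13.50. Samples 13 and 14, which had the highest Slit2 and Ntn4 values of their populations, also had the highest sums in 6 of the 10 lists: fibroblast, smooth muscle, endothelium, interstitial cells of Cajal, pericyte and mesothelium. In sample 14 the endothelial sum was mostly Tek (11.24). Of the CD90+ samples, 14 was the lowest in Pecam1, Cdh5, Kdr, Tie1, Lyve1 and Prox1, and the highest in Esam. Of 8 measured endothelial markers of 9 listed 1 was higher (Tek) and 2 lower (Lyve1 and Prox1), with sums of 9.47 to 10.43 and 10.34 to 11.43. Of 5 pericyte markers 2 were higher (Rgs5 and Notch3) and 3 lower (Abcc9, Cspg4 and Kcnj8). Their sums were 11.60 to 11.76 and 9.78 to 10.13, in CD90- samples mostly Abcc9. Of 2 measured markers of interstitial cells of Cajal of 3 listed 1 was lower (Ano1), and Kit was not called. The sums were 9.89 to 12.02 and 7.59 to 8.69, in CD90- samples mostly Ano1, with Kit at 10.56 in sample 13. The sums of smooth muscle and endothelium overlapped between the populations. So did those of epithelium (10.74 to 13.37 and 11.21 to 13.56, none of 8 measured genes of 9 called) and of leukocytes (7.92 to 8.13 and 8.09 to 9.0, 2 of 7 measured genes of 8 higher, with Ptprc, Itgam, Csf1r and Adgre1 under the filter). Of 4 mesothelial markers 1 was higher (Upk3b), with sums of 6.76 to 7.0 and 7.40 to 7.91. The glial marker Gfap, Ret and Upk3b reached the filter only in the CD90+ samples, so they could be tested only because they were higher there. Their means, and those of the glial marker Foxd3 and of Uchl1, lay under the negative control rows in both populations. The part of these cell types in the differences of the guidance genes was not tested.

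**Figure D5:**
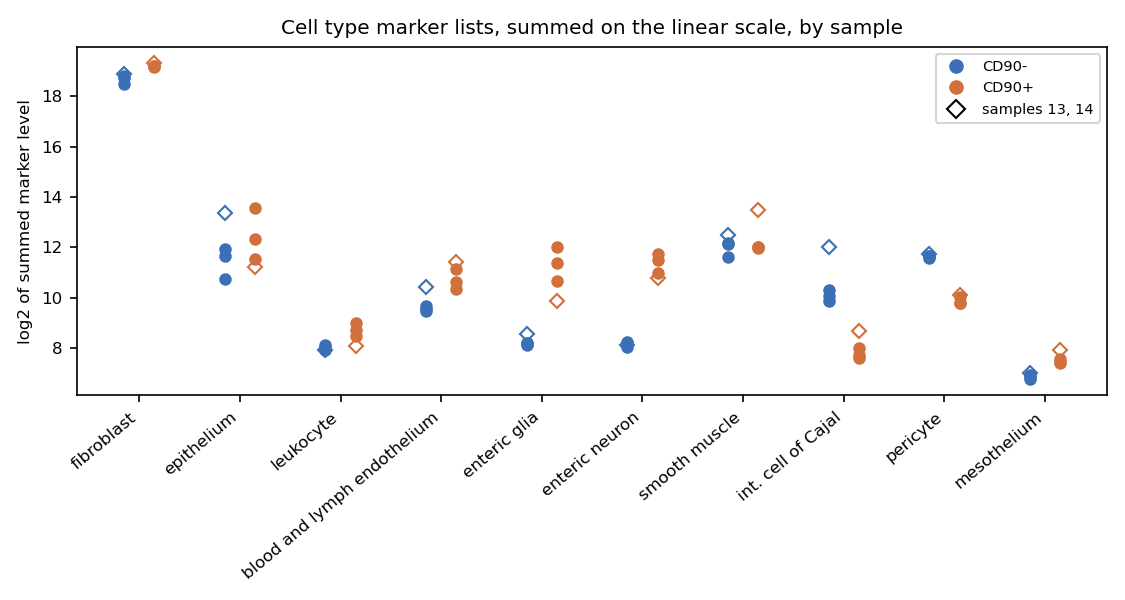
Summed level of the measured genes of each cell type list (y axis, log2 of the sum of linear values) in CD90- (blue) and CD90+ (orange) samples. Points are samples and open diamonds are samples 13 and 14. Enteric glia sums are 8.11 to 8.54 in CD90- and 9.85 to 12.02 in CD90+ samples, where they rest mostly on Cdh19.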

How the data were processed

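RNA of 8 sorted fibroblast samples was measured on 8 Affymetrix mouse transcriptome arrays, after amplification from 2 ng per the labels' protocols. Amplification can widen the spread of dim rows. For each transcript cluster the authors deposited a log2 value; Affymetrix Expression Console 1.1 and RMA are named in the submitters' processing notes, while the sources used here give neither the settings nor the array's genome build. The table held 72688 rows, 6732 of them controls. The platform annotation named 1 gene for 31258 of 65956 clusters, several for 1492 and none for 33206; symbols were updated through RefSeq (GRCm38.p6). Of several clusters naming a gene, the brightest on average was kept, and genes at 5.36 or more in at least 4 samples were tested.

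The populations were compared with limma 3.58.1 (lmFit and eBayes, R 4.3.3) over 17250 genes, two-sided, with Benjamini-Hochberg adjustment at 0.05 and no block. Exact permutation tests (SciPy 1.17.1) took the 8 samples as exchangeable. Precision is limited by having 4 arrays per population. The members and lists were chosen with earlier results of these data known. Named were all members, up to 4 called genes with the smallest p per sublist of the wider list, the genes of the sort gate, the 2 nearest profiles of the 3 members with the largest differences, and up to 3 brightest markers per cell type; other names were chosen after their values were seen, among them Mir218-1, Mir218-2, Slitrk6, Xist, Uty, Flrt3, Gpc1, Prox1 and Col1a2, and genes listed as under the filter. In a simulation of the CD90 comparison, 200 of 17250 genes were changed: 100 by 0.5 (log2), 50 by 1 and 50 by 2. Of these, 43%, 94% and 98% were recovered. The simulated share of changed genes was far below the 29.7% called in the real data, and the adjustment depends on that share. The percentages therefore hold for the simulated setting and do not give the recovery in the real comparison. Alternatives changed the filter, the cluster choice, the normalization, the spread model, array weights, a block and the samples left out.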

Additional observations from a re-analysis of the deposited data

Results flagged for a closer look

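In 54 sets of 4 samples (27 genes in 2 populations), 9 values lay far from the other 3 by Dixon's criterion, the gap to the nearest sample over the range, at its 95% level, where chance gives about 1 in 20. Of these, 8 belonged to sample 13 or 14. Slit2 was high in sample 13 (6.56, the next at 5.39) and in sample 14 (6.76, the next at 5.80). Ntn4 was high in sample 14, at 9.76 with the next at 8.44. Unc5c was high in sample 14, at 7.36 with the next at 6.26. Among the wider list, Neo1 was high in sample 14 (11.40), and Unc5a (6.65) and Rgmb (7.56) in sample 13. Pdpn, the podoplanin of the sort gate, was high in sample 14, at 13.54. Ptprc was high in sample 15, at 4.74, under the filter on dim rows.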

How the results depend on the processing

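The counts of guidance genes called (3 higher, 2 lower) ranged from 3 to 3 higher and from 1 to 3 lower when single samples were left out. Fewer lower calls came from Unc5c alone, without sample 16, 17, 18, 19 or 20, and the third lower call was Robo2, without sample 13, without samples 13 and 14 together, and with array weights. Slit3, Ntn1, Ntn4, Unc5b and Mir218-2 kept their direction and their call under all 18 alternatives, with differences of 2.37 to 2.69, 0.55 to 0.72, 2.36 to 2.92, -1.0 to -0.75 and 2.28 to 2.66. Robo1 was called under none of its 18, with differences of -0.16 to -0.09 and adjusted p from 0.0685 to 0.496. No labels pair the samples; with consecutive title numbers as a replicate block, a pairing that is assumed, 4 members were higher (Slit2 joined them, limma adjusted p = 0.0139) and 2 lower. A term for samples 13 and 14 in the fit, added after seeing the data, gave the same counts, and leaving out both samples gave 4 and 3. Slit2 was not tested under the stricter filter. No gene among the 8 tested reversed. With 3 samples in a population the paralog tests can give no exact p under 0.0571, so leaving samples out says nothing of their calls. Without a filter Slit1 and Dcc were not called (adjusted p = 0.652 and 0.976).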

Other observations

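Slitrk6, chosen after its values were seen, codes for a neuronal membrane protein named for leucine-rich repeats like those of the Slits. It fell from 15.48 ± 0.21 to 11.53 ± 0.65 (difference -3.95, limma adjusted p = 1.8e-05, no overlap between the populations), and only 0.33% of the genes tested differed by more. Ntng1, which codes for a membrane-anchored relative of the netrins, reached the filter in too few samples to be tested. It lay between 4.56 and 4.81 in CD90- and between 4.93 and 6.34 in CD90+ samples.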
